A study of Mus musculus with 32 samples.

Results

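Transcripts of mitochondrial and respiratory chain genes were followed in the prefrontal cortex of mice withdrawing from ethanol. The 62 members are the clone spots, of 4696 on the array, whose title holds mitochond, NADH, cytochrome c, ubiquinol, ATP synthase or dehydrogenase. Of 66 matching titles, 2 that also named a kinase, phosphatase or receptor and 2 named exceptions were left out. The rule reads titles only, but it was set with earlier results of these data known. The members comprise 30 named genes or mRNAs and 32 expressed sequence tags (ESTs), which are known here by the protein their title calls similar, with its species. They fall into 9 clones of complex I, 3 of complex III, 3 of complex IV, 1 of ATP synthase, 11 of import and inner membrane carriers, 14 of matrix and citrate cycle enzymes, 8 of mitochondrial translation and transcription and 13 others. No title named complex II or cytochrome c itself. The word dehydrogenase also brought in enzymes that act outside mitochondria, such as the cytosolic Idh1 and Ugdh, and the word ATP synthase a clone similar to a vacuolar pump subunit.

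The mice came from 2 lines bred in opposite directions for the severity of handling-induced convulsions after ethanol vapour, the seizure-prone WSP line (Withdrawal Seizure-Prone) and its resistant counterpart WSR, out of the genetically mixed HS/Ibg stock. Each line was bred as 2 independent populations, selection replicates 1 and 2. Drug-naive adults were kept for 72 h in air or in ethanol vapour (EtOH), and cortex was collected 8 h after vapour ended. EtOH mice first received ethanol at 1.5 g/kg, with a higher dose in replicate 2 of WSP, and all mice received pyrazole, a blocker of alcohol dehydrogenase, at 68.1 mg/kg, so the air mice are controls for EtOH and not for pyrazole. Each of the 32 one-colour cDNA arrays carried RNA pooled from 2 mice, 64 mice in all. The 8 groups were female WSP EtOH, female WSP air, female WSR EtOH, female WSR air, male WSP EtOH, male WSP air, male WSR EtOH and male WSR air, with 4 arrays each. An array is written by its selection replicate and pool, so that 2-1 is replicate 2, pool 1, and 4 values in a row follow the order 1-1, 1-2, 2-1 and 2-2. With 2 populations per line, a line difference cannot be told apart from drift between few populations.

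Mitochondria oxidise NADH at complex I, pass electrons through ubiquinol to complex III and by cytochrome c to complex IV, and use the resulting proton gradient at ATP synthase to make ATP. Most subunits of these complexes are encoded in the nucleus, and their proteins are imported through translocases of both mitochondrial membranes. Neurons depend on this supply for ion pumping, and oxidation of ethanol and of its product acetaldehyde reduces NAD+ to NADH.

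Many nuclear genes of the chain hold promoter motifs that bind NRF-1, GABP and YY1, factors known for this class. Of the chain genes described below, the promoters of 3 that held such letters are printed to show where these stand. Each runs from 250 bases before to 50 after the start in RefSeq, build GRCm38.p6, 5′ to 3′ on the minus strand, in the order of transcription, with motifs in capitals. The searches, on both strands, were for an NRF-1 consensus, for CCGGAAG for GABP and for AAGATGGC for YY1. The NRF-1 consensus holds the letters shared by both long capital runs of Cox6a1, with any base where these runs differ. It is not a palindrome, so its reverse complement was searched as a separate string. The motifs do not overlap one another in the printed stretches. All 25 gene symbols of the members were found in RefSeq and 23 had a promoter, Grpel2 and Ndufa2 being without one.
Cox6a1, chr5:115348909-115349208: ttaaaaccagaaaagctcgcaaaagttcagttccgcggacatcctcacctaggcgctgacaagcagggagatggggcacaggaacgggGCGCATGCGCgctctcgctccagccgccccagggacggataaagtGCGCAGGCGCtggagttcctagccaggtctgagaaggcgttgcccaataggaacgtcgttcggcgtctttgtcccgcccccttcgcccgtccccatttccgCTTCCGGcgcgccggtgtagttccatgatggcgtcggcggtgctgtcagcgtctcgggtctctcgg
Cox8a, chr19:7217567-7217866: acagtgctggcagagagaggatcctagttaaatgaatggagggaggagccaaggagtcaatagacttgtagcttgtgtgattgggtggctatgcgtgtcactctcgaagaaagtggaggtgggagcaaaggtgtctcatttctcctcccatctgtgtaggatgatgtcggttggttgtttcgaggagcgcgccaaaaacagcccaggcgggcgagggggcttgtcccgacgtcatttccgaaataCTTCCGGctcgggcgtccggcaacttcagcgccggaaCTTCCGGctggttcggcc
Ndufs4, chr13:114388045-114388344: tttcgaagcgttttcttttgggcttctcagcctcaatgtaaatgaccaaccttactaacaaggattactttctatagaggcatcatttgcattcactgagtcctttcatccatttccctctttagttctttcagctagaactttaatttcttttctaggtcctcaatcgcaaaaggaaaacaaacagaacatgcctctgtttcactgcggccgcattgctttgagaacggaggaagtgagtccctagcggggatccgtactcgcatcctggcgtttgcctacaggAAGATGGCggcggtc
Cox6a1 held the NRF-1 letters at both of its long capital runs and GABP's once, Cox8a held GABP's at both runs, and Ndufs4 held YY1's past the start site. The promoter of the chain gene Ndufv1, not printed, held none of these motifs. Among the 23 members' promoters, 2 (8.7%) held the NRF-1 letters, against 1154 of all 17492 (6.6%). GABP's letters stood in 4 (17.4%), against 2081 (11.9%) of all. YY1's stood in 5 (21.7%), those of Atp5pb, Bckdha, Idh3g, Mrps7 and Ndufs4, against 564 (3.22%) of all. These matches describe letters in a window and were not tied to any value of the arrays.

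Signals are log2 intensities after background correction with an offset of 50, so the scale has a floor at 5.65, and 58 of the 62 members and 84.7% of all clones had a mean within 1 unit of it. Differences of such dim spots are understated. Of the members, 11 were above their array's background on all 32 arrays and 20 on fewer than 16. Members were above background in 58.1% of spot values in female WSP EtOH and 51.2% in female WSP air, in 59.3% and 53.6% in female WSR EtOH and air, in 62.9% and 70.2% in male WSP EtOH and air, and in 68.1% and 73.8% in male WSR EtOH and air. The shares of all clones moved alongside, with 57.8% to 63.8% on female and 65.3% to 75.6% on male arrays. Array background ran from 9.83 to 31.8 units on female arrays and from 15.4 to 45.0 on male arrays. The neuron marker Thy1 was above background on 26 arrays and Ina on all 32. The 4 astrocyte markers were so on 7 to 32 arrays, with Glul on all 32, and the striatal marker Dlx5 on 10. A bulk sample cannot tell fewer cells of a type from less RNA per cell. With 4 arrays to a group, precision is limited.

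**Figure D1:**
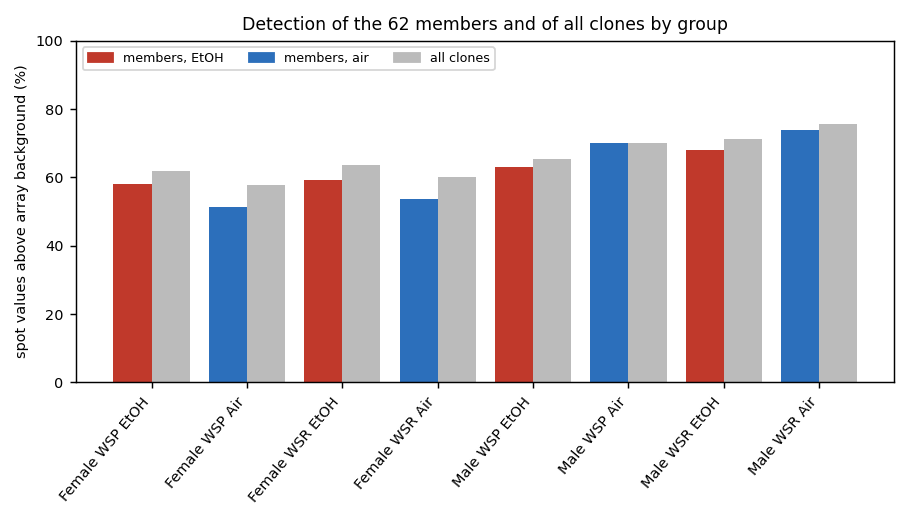
Share of spot values above the array's own background (%) in each group, for the 62 members (EtOH red, air blue) beside all 4696 clones (grey). In both female lines the EtOH bars of the members stand above the air bars (58.1% and 51.2%, 59.3% and 53.6%), and in both male lines below them (62.9% and 70.2%, 68.1% and 73.8%), as do the grey bars.

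Arrays also resembled each other outside the study's groups. Over 192 genomic DNA control spots, 25 arrays fell into 9 sets, most of them with arrays of several groups. For 16 of the 62 members (25.8%) the highest arrays were exactly the arrays of 1 such set, which held for 601 of all 4696 clones (12.8%). Cox6a1 and the second Ndufv1 clone peaked together on female WSR EtOH 2-1, male WSP EtOH 2-1 and male WSR air 2-2. These patterns were chosen after the values were seen, and a set is named beside the results it touches most. The main fit takes arrays as independent, although values within a set correlated at 0.485 across clones, so its SEs, intervals and p values may be off. Fitting the set as a random block is among the alternatives.

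Across the respiratory chain, EtOH and air arrays lay close together. Averaged over sexes and lines, 9 of the 16 chain and ATP synthase clones were higher and 7 lower in EtOH, with differences from -0.14 to 0.11 and a median of 0.02 log2 units, against 0.003 over all clones. None of the 62 members passed the test on average (limma, adjusted p under 0.05), as did none of all 4696 clones (0%), and 0 of the 16 chain clones had an unadjusted p under 0.05. The smallest adjusted p of a member was 0.656. The 95% interval of a chain clone reached at most 0.45 units from 0, for the EST similar to the KFYI subunit. The mean deviation of the 16 clones from their own averages was 0.005 ± 0.05 in female WSP EtOH and 0.001 ± 0.08 in female WSP air (SD, n = 4 each). It was 0.04 ± 0.05 in female WSR EtOH and -0.02 ± 0.05 in female WSR air, 0.008 ± 0.07 in male WSP EtOH and -0.02 ± 0.02 in male WSP air, and -0.03 ± 0.08 in male WSR EtOH and 0.02 ± 0.07 in male WSR air.

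In complex I, the entry point for NADH, 5 clones were higher and 4 lower on average. The EST highly similar to the bovine PDSW subunit, an accessory subunit of the Bos taurus enzyme, was far above background everywhere. It read 10.98, 11.18, 11.07 and 10.80 in female WSP EtOH against 11.02, 11.13, 11.02 and 11.05 in air, and 10.52, 10.67, 10.83 and 10.58 in female WSR EtOH against 10.67, 10.79, 10.67 and 10.93 in air. In males it read 10.78, 10.93, 10.98 and 10.48 in WSP EtOH against 10.83, 10.84, 10.90 and 10.72 in air, and 10.96, 10.78, 10.87 and 11.08 in WSR EtOH against 10.95, 10.88, 10.61 and 10.88 in air. EtOH and air overlapped in all 4 pairs, and the average difference was -0.03 (SE 0.05, limma, adjusted p = 0.922, n = 16 each).

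The EST highly similar to the bovine B18 subunit, another accessory subunit in Bos taurus, differed between EtOH and air in female WSP and in no other pair by as much. It read 7.47, 7.48, 7.35 and 7.27 in female WSP EtOH against 6.83, 6.81, 6.98 and 6.78 in female WSP air, so all EtOH arrays lay above all air arrays. In female WSR it read 7.36, 6.94, 7.13 and 7.39 in EtOH against 7.09, 6.95, 7.24 and 7.15 in air. Male WSP arrays read 7.18, 6.62, 7.04 and 7.42 in EtOH against 7.09, 6.84, 7.30 and 7.27 in air, and male WSR arrays 6.56, 7.45, 7.13 and 7.13 in EtOH against 7.31, 7.03, 7.26 and 7.22 in air. The groups overlapped in these 3 pairs. The female WSP difference was 0.54 (SE 0.16, 95% interval 0.22 to 0.86) and did not pass (limma, adjusted p = 0.188). Under cyclic loess scaling it was 0.27 (adjusted p = 0.319). Its EtOH effect was 0.42 larger in females than in males (adjusted p = 0.75) and 0.26 larger in WSP than in WSR (adjusted p = 0.999), neither of which passed in limma, and under cyclic loess these were 0.21 and 0.15. Female WSP EtOH 1-1 and 1-2 form a control-spot set of their own and were its highest arrays, so set and group cannot be told apart for them.

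Ndufs4 (chr13:114287795-114388094), an accessory subunit needed for a stable complex I, showed the same order in female WSP at a smaller size. It read 6.81, 6.81, 6.89 and 6.86 in EtOH against 6.69, 6.45, 6.58 and 6.59 in air, without overlap, a difference of 0.27 (SE 0.12, limma, adjusted p = 0.380) that was 0.16 under median scaling and 0.06 under cyclic loess. The neuronal markers Thy1 and Ina moved with this pair: their summed level was 12.38 to 12.63 in female WSP EtOH and 11.97 to 12.24 in female WSP air, without overlap, and Thy1 differed by 0.29 (limma, adjusted p = 0.299). Both markers were above background on 26 arrays or more, and their part in the B18 and Ndufs4 differences was not tested. The remaining 3 pairs overlapped for Ndufs4, and the average difference over all 16 and 16 arrays was 0.04 (SE 0.06). Its lowest group mean was 6.58 in female WSP air and its highest 6.89 in female WSR air, so the extremes were both air groups.

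The other complex I clones were dim. Ndufv1 (chr19:4007499-4012755), the subunit that binds NADH and its flavin, has 2 clones, which differed by -0.01 (SE 0.06) and 0.03 (SE 0.05) between EtOH and air. Ndufa2, an accessory subunit, ran from 5.72 over a median of 6.0 to 6.48 in EtOH and from 5.68 over 5.93 to 6.51 in air, a difference of 0.11 (SE 0.09). The ESTs similar to the bovine 39 kD and 13 kD-B subunits differed by -0.01 and 0.04. None of these passed (limma, adjusted p from 0.781 to 0.966).

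The EST moderately similar to the bovine KFYI subunit was set by a single array. It read 5.92, 6.27, 5.73 and 5.69 in female WSP EtOH against 5.92, 5.69, 8.41 and 5.79 in air, and stayed at or under 5.91 on every array of the other 6 groups. The female WSP difference of -0.55 turned to 0.10 (SE 0.08, limma, adjusted p = 0.717) without female WSP air 2-1. That array was also high for the macrophage gene Fcer1g, which read 8.31 there against 5.79 to 5.88 on the other 3 air arrays of its group. The microglial markers Mpeg1 and Cd14 did not rise alike: Mpeg1 read 6.33 there against 6.02 to 6.42, and Cd14 5.82 against 5.71 to 5.76. The sum over these 3 microglial marker genes in female WSP was 17.60 to 18.03 in EtOH and 17.53 to 20.45 in air. None of these markers was below background on all arrays, and their part in the result was not tested.

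Complex III takes electrons from ubiquinol. The EST highly similar to the bovine 6.4 kD protein ran from 5.91 over a median of 6.06 to 6.26 in EtOH and from 5.89 over 6.09 to 6.86 in air. Its highest value, on female WSP air 1-2, stood apart from the rest of its group, and the difference was -0.04 (SE 0.06). The EST similar to human core protein I, a structural part of the complex, ran from 5.73 over 5.83 to 6.05 in EtOH and from 5.74 over 5.82 to 6.77 in air. The medians differed little, and the mean difference of -0.13 (SE 0.09) rested on air arrays at 6.77, 6.56 and 6.4, of which 1 lay in each of 3 groups. It was -0.0668 without female WSP air 2-2 and -0.0834 without female WSR air 1-1. The EST weakly similar to the 17 kD protein of Saccharomyces cerevisiae differed by 0.05 (SE 0.06). None of the 3 passed (limma, adjusted p from 0.757 to 0.871).

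Complex IV reduces oxygen. The EST highly similar to mouse cytochrome c oxidase polypeptide VIIb, a small nuclear-encoded subunit, was as far above background as the PDSW clone. It read 11.10, 11.17, 11.05 and 10.96 in female WSP EtOH against 11.33, 11.05, 11.04 and 10.97 in air, and 11.78, 11.36, 11.38 and 11.65 in female WSR EtOH against 11.73, 11.12, 11.38 and 11.08 in air. In males it read 11.28, 11.38, 11.26 and 11.29 in WSP EtOH against 11.42, 11.02, 11.33 and 11.42 in air, and 11.24, 11.90, 11.00 and 11.10 in WSR EtOH against 11.26, 11.46, 11.59 and 11.51 in air. EtOH and air overlapped in every pair, with an average difference of 0.01 (SE 0.07, limma, adjusted p = 0.978). Its highest arrays, female WSR EtOH 1-1 at 11.78 and male WSR EtOH 1-2 at 11.90, form 1 control-spot set.

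Cox8a (chr19:7215158-7217616), a small nuclear-encoded subunit, read 6.27, 6.95, 6.24 and 6.14 in female WSP EtOH against 6.27, 6.12, 6.31 and 6.54 in air, and 5.98, 6.83, 6.18 and 6.26 in female WSR EtOH against 6.48, 6.49, 6.15 and 6.0 in air. It read 6.41, 6.88, 6.48 and 6.27 in male WSP EtOH against 6.20, 6.29, 6.41 and 6.19 in air, and 6.10, 6.13, 6.11 and 6.11 in male WSR EtOH against 6.32, 6.10, 6.36 and 6.04 in air. In all 4 EtOH groups the array 1-2 was the highest, and the average difference was 0.07 (SE 0.08, limma, adjusted p = 0.854).

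Cox6a1 (chr5:115345652-115348958), the subunit VIa form of non-muscle tissues, was near the floor on most arrays. It read 5.83, 6.12, 6.97 and 5.97 in female WSR EtOH against 5.86, 5.85, 6.02 and 5.86 in air, and 5.78, 5.90, 6.03 and 6.10 in male WSR EtOH against 6.17, 6.06, 5.95 and 7.03 in air. Together with 6.72 on male WSP EtOH 2-1, the values 6.97 and 7.03 were its highest, and the 3 arrays form 1 control-spot set, while no other array passed 6.28. The differences of 0.33 in female WSR and -0.35 in male WSR (SE 0.21, limma, adjusted p = 1.00 each) rest on these arrays, and the male WSR one was -0.11 without air 2-2. Complex IV as a whole was higher in EtOH for 3 of 3 clones in female WSR (median 0.22) and lower for 3 of 3 in male WSR (median -0.14), with none passing.

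Atp5pb (chr3:105942698-105959263), subunit b of the ATP synthase stalk, was above background on 3 EtOH arrays and 0 air arrays. It ran from 5.68 over 5.79 to 6.04 in EtOH and from 5.67 over 5.76 to 5.86 in air, and no fold is given since the bound fell under 1. Its highest arrays, at 6.04 and 5.89, were the same 2 as for the VIIb clone.

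**Figure D2:**
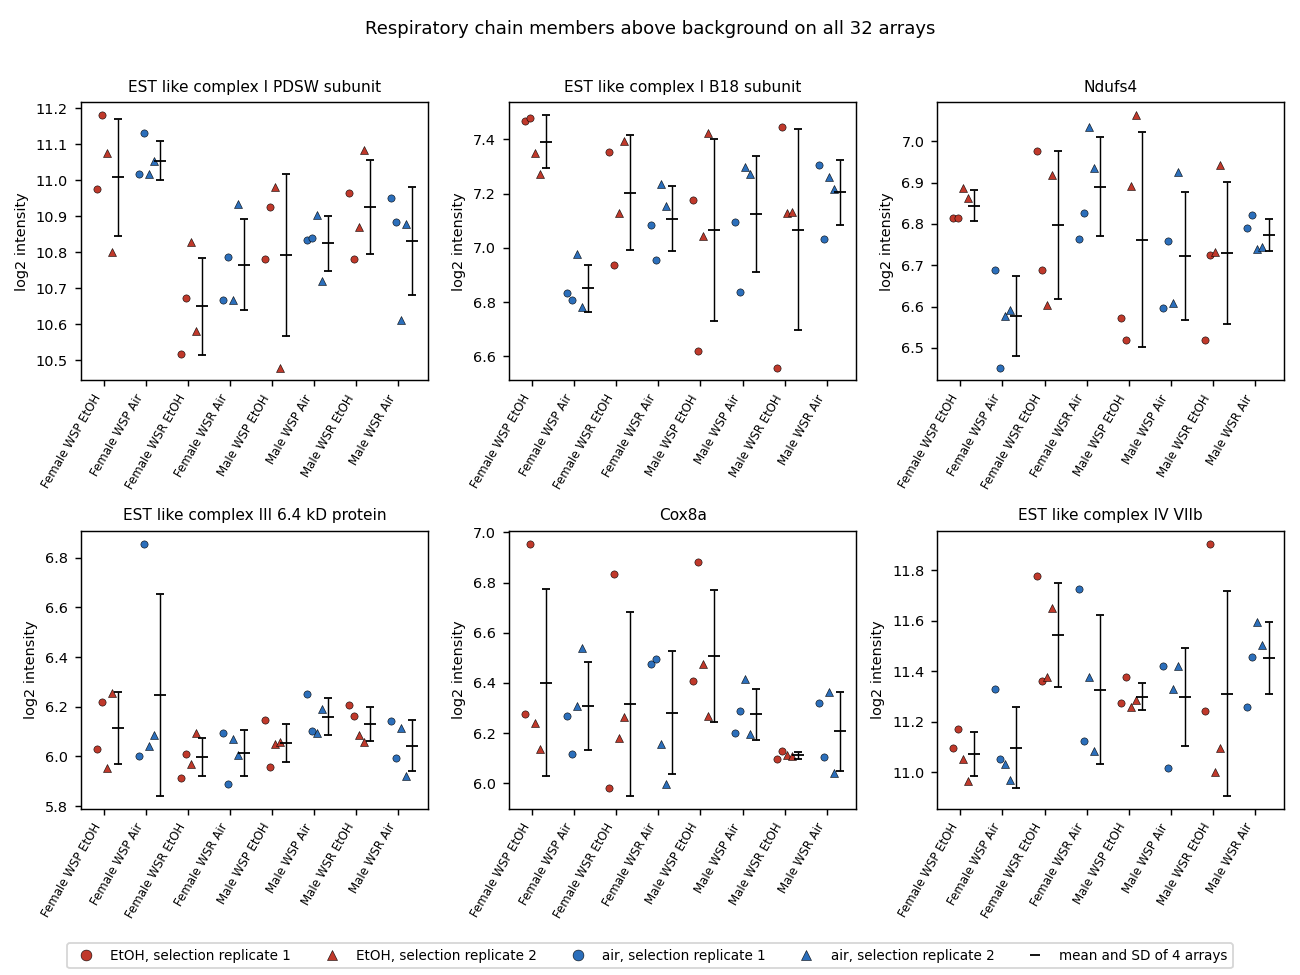
Log2 intensity on each array for the 6 chain clones above background on all 32 arrays, by group, with mean and SD of 4 arrays beside the points (EtOH red, air blue, circles selection replicate 1, triangles selection replicate 2). The B18 clone (7.27 to 7.48 in female WSP EtOH, 6.78 to 6.98 in female WSP air) and Ndufs4 separate in female WSP, and the PDSW and VIIb clones overlap between EtOH and air in all 4 pairs.

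**Figure D3:**
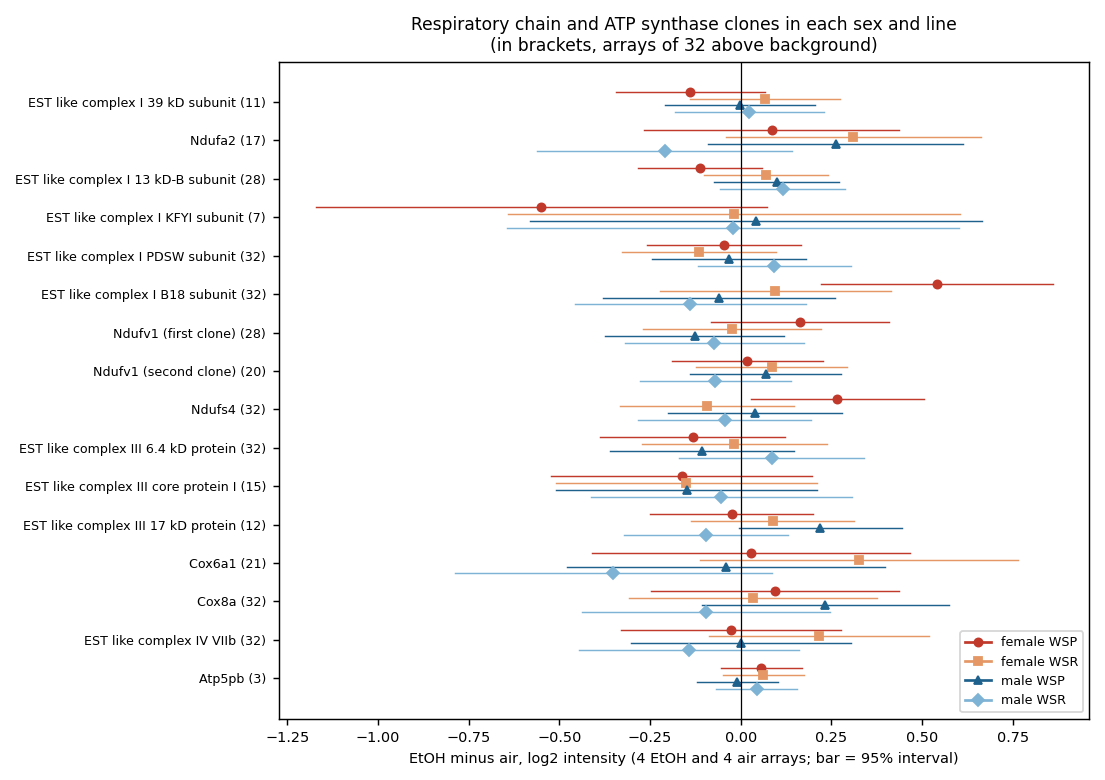
EtOH minus air in log2 intensity for the 16 chain and ATP synthase clones in each sex and line, with 95% intervals from limma (4 EtOH and 4 air arrays) and, in brackets, the number of arrays above background. The B18 interval in female WSP (0.22 to 0.86) and that of Ndufs4 lie above 0, while the wide KFYI interval belongs to 1 array.

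Within each sex and line, the chain clones lay on both sides of 0. EtOH was higher for 8 of 16 chain clones in female WSP (median -0.003, range -0.55 to 0.54), 10 of 16 in female WSR (median 0.07, range -0.15 to 0.33), 8 of 16 in male WSP (median -0.001, range -0.15 to 0.26) and 5 of 16 in male WSR (median -0.06, range -0.35 to 0.12). No member passed in any of the 4 pairs (limma, smallest adjusted p 0.188, 1.00, 0.751 and 1.00 in that order), nor did any other clone (0% in each). At an unadjusted p under 0.05 the members numbered 7 in female WSP (11.3%, against 11.6% of all clones), 2 in female WSR (3.23%, against 3%), 4 in male WSP (6.45%, against 6.15%) and 2 in male WSR (3.23%, against 3.39%). EtOH and air arrays did not overlap for 5 members in female WSP (8.06%, against 5.47% of all clones), 1 in female WSR (1.61%, against 2.49%), 4 in male WSP (6.45%, against 2.77%) and 1 in male WSR (1.61%, against 3.56%). Of the members, 4 were higher and 2 lower in EtOH in all 4 pairs, 9.68% together, against 14.4% of all clones. The 4 pairs share no arrays.

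Among the import machinery and carriers, which move proteins and metabolites across the inner membrane, 5 of 11 clones were higher and 6 lower in EtOH on average (median -0.03, range -0.25 to 0.14). Slc25a5 (chrX:36795597-36798808), the carrier that exchanges ADP for ATP, read 5.84, 5.80, 5.87 and 5.89 in female WSP EtOH against 6.11, 5.97, 6.32 and 5.98 in air. The EtOH arrays all lay below the air arrays, a difference of -0.24 (SE 0.09, limma, adjusted p = 0.307), while its average difference over all groups was -0.03. The first clone of Slc25a13 (chr6:6041218-6217304), an aspartate and glutamate carrier, read 5.81, 5.68, 5.77 and 5.78 in male WSP EtOH against 5.86, 6.02, 5.89 and 5.92 in air, without overlap and close to the floor. Its average difference of -0.09 (SE 0.03) had an unadjusted p = 0.0113 and did not pass in limma (adjusted p = 0.656).

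Timm17b (chrX:7899336-7907652), a channel subunit of the inner membrane translocase, ran from 5.82 over a median of 6.06 to 6.61 in EtOH and from 5.82 over 5.93 to 6.13 in air. The EtOH arrays reached higher and the ranges overlapped, with an average difference of 0.14 (SE 0.06, limma, adjusted p = 0.656). Slc25a17, a peroxisomal carrier that the title calls mitochondrial, read 5.72, 5.76, 5.81 and 5.84 in female WSR EtOH against 5.94, 7.21, 5.70 and 6.16 in air. Its EtOH spots were above background on 0 arrays there. The difference of -0.47 was -0.15 without air 1-2 (limma, adjusted p = 1.00 each), so no fold is given. The air array 1-2 was high in 3 groups, at 7.21 in female WSR, 7.48 in male WSP and 7.09 in male WSR. These 3 share a control-spot set with female WSR air 1-1 and female WSR EtOH 1-2, which read only 5.94 and 5.76. Timm13 and the second Slc25a13 clone had their highest values on male WSP EtOH 1-2 and male WSR EtOH 1-1, another set, at 6.69 and 6.68 for Timm13 and at 6.68 and 6.62 for Slc25a13.

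Of 14 matrix and citrate cycle clones, 4 were higher and 10 lower in EtOH on average (median -0.04, range -0.12 to 0.11). The clone titled hydroxylacyl-CoA dehydrogenase, an enzyme of fatty acid oxidation, had the smallest p of all members in the average comparison of EtOH and air. It ran from 5.80 over a median of 5.92 to 6.16 in EtOH and from 5.72 over 5.82 to 5.97 in air, was above background on 12 EtOH and 5 air arrays, and 15 of 16 EtOH arrays lay above the air mean. The difference was 0.11 (SE 0.04, limma, unadjusted p = 0.00474, adjusted p = 0.656). In male WSP it read 5.88, 6.10, 5.93 and 5.86 in EtOH against 5.78, 5.82, 5.73 and 5.77 in air, where 0 air arrays were above background. The group means put EtOH at least 1.07-fold higher there, and the difference of 0.17 (SE 0.07) did not pass (limma, adjusted p = 0.751). The EST weakly similar to the human pyruvate dehydrogenase E1 beta subunit, which feeds pyruvate into the cycle, read 5.73, 5.67, 5.72 and 5.77 in male WSP EtOH against 5.79, 5.88, 6.13 and 5.91 in air. EtOH was above background on 0 arrays there, and the group means put air at least 1.04-fold higher. The male WSP difference of -0.20 (SE 0.07) did not pass (limma, adjusted p = 0.751). Over all groups the average difference was -0.08 (SE 0.03, limma, adjusted p = 0.656).

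Enzymes of branched-chain amino acid breakdown lay on both sides of 0. The EST similar to rat 3-hydroxyisobutyrate dehydrogenase, of valine breakdown, read 5.69, 5.81, 5.69 and 5.75 in male WSR EtOH against 5.91, 5.84, 5.93 and 5.90 in air, without overlap (difference -0.16, SE 0.05, limma, adjusted p = 1.00). In female WSR it was 0.10 higher in EtOH, and its EtOH effect was 0.15 larger in females than in males (SE 0.05, adjusted p = 0.699 in limma). Bckdha (chr7:25629852-25658782), a subunit of the branched-chain ketoacid dehydrogenase, read 5.88, 6.10, 6.19 and 6.03 in male WSR EtOH against 5.76, 5.87, 5.74 and 5.91 in air, with overlap and a difference of 0.23 (SE 0.11), or 0.11 with the array set as a random block. The EST similar to rat methylmalonate-semialdehyde dehydrogenase ran from 5.96 over 6.44 to 6.95 in EtOH and from 6.06 over 6.53 to 7.67 in air (average difference -0.12, SE 0.11). The 7.67 fell on female WSP air 2-1, the array that set the KFYI value. Without that array its female WSP difference was -0.22 in place of -0.44, and its average -0.0632. The EST weakly similar to acyl-CoA dehydrogenases of Caenorhabditis elegans read 5.96, 5.93, 5.75 and 5.90 in female WSP EtOH against 5.97, 6.07, 7.60 and 5.96 in air, a difference of -0.52 that was -0.12 without the same array (limma, adjusted p = 0.738).

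Of 8 clones of mitochondrial translation and transcription, 6 were higher and 2 lower in EtOH on average (median 0.01, range -0.14 to 0.13). The EST moderately similar to a human mitochondrial leucyl-tRNA synthetase, which charges tRNA for translation in the organelle, ran from 5.71 over a median of 5.84 to 6.12 in EtOH and from 5.71 over 5.77 to 5.83 in air. EtOH exceeded the air mean on 14 of 16 arrays, by 0.10 on average (SE 0.03, limma, unadjusted p = 0.00549, adjusted p = 0.656), and 5 EtOH and 2 air arrays were above background. Its highest values, 6.09 and 6.12, fell on male WSP EtOH 1-2 and male WSR EtOH 1-1, which form 1 control-spot set. The EST moderately similar to human mitochondrial RNA polymerase (the second of 2 such clones) ran from 6.07 over 6.44 to 7.08 in EtOH and from 5.94 over 6.37 to 7.13 in air, a difference of 0.13 (SE 0.09), or 0.0791 without male WSP EtOH 1-2.

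Of the 13 other members, 5 were higher and 8 lower in EtOH on average (median -0.008, range -0.24 to 0.28). Among them the smallest adjusted p belonged to the EST weakly similar to rat mitochondrial glutathione S-transferase, a detoxifying enzyme. It read 5.86, 5.89, 5.81 and 5.93 in female WSP EtOH against 5.91, 6.4, 7.40 and 6.45 in female WSP air. The EtOH arrays were low and alike, the air arrays spread widely, and air 1-1 lay within the EtOH range. The difference was -0.67 (SE 0.19, limma, adjusted p = 0.188), and -0.38 (SE 0.16, adjusted p = 0.351) without female WSP air 2-1. It passed without female WSP air 1-1 (-0.88, adjusted p = 0.0348), under median scaling (-0.83, adjusted p = 0.0488) and under cyclic loess (-0.83, adjusted p = 0.0344, all limma). With the array set as a random block it did not pass (-0.67, adjusted p = 0.414, limma). Fitted on only the 8 arrays of the 2 groups, it did not pass either (-0.67, adjusted p = 0.719, limma). It was -0.28 in selection replicate 1 and -1.06 in selection replicate 2, -1.39 with an offset of 10 and -1.66 in the authors' deposited value table, none of which passed. Its EtOH effect was 0.40 lower in females than in males (adjusted p = 0.785), with an interaction of -0.25 without female WSP air 2-1, and the average over all groups was 6.0 ± 0.20 in EtOH and 6.24 ± 0.37 in air (SD, n = 16 each, difference -0.24, adjusted p = 0.656, limma). The EST weakly similar to rat NADH-cytochrome b5 reductase read 6.35, 6.13, 6.05 and 6.09 in female WSP EtOH against 5.97, 5.91, 5.97 and 6.01 in air, without overlap (difference 0.19, limma, adjusted p = 0.608).

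The EST weakly similar to the human vacuolar ATP synthase subunit M9.2, which belongs to the proton pump of vesicles and lysosomes, read 6.23, 6.26, 6.29 and 6.29 in male WSP EtOH against 5.92, 5.77, 5.95 and 5.95 in air. The groups did not overlap, with a difference of 0.37 (SE 0.13, limma, adjusted p = 0.751), and its average over all groups was 0.13 higher in EtOH. The EST moderately similar to mouse estradiol 17beta-dehydrogenase read 6.36, 6.03, 6.12 and 6.56 in female WSR EtOH against 5.80, 5.86, 5.90 and 5.83 in air, without overlap (difference 0.42, SE 0.15, limma, adjusted p = 1.00). Its 3 highest arrays, female WSR EtOH 2-2, male WSP EtOH 2-2 and male WSR air 2-1, are 1 control-spot set, and with the set as a random block the female WSR difference was 0.24. Ugdh (chr5:65413207-65435842), which makes UDP-glucuronate in the cytosol and is named after its values were seen, had the widest average difference, 0.28 (SE 0.14). It read 7.84 on male WSP EtOH 1-2 and 7.21 on male WSR EtOH 1-1, again 1 set, and at most 6.14 elsewhere. The average was 0.16 without male WSP EtOH 1-2 and 0.20 without male WSR EtOH 1-1.

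**Figure D4:**
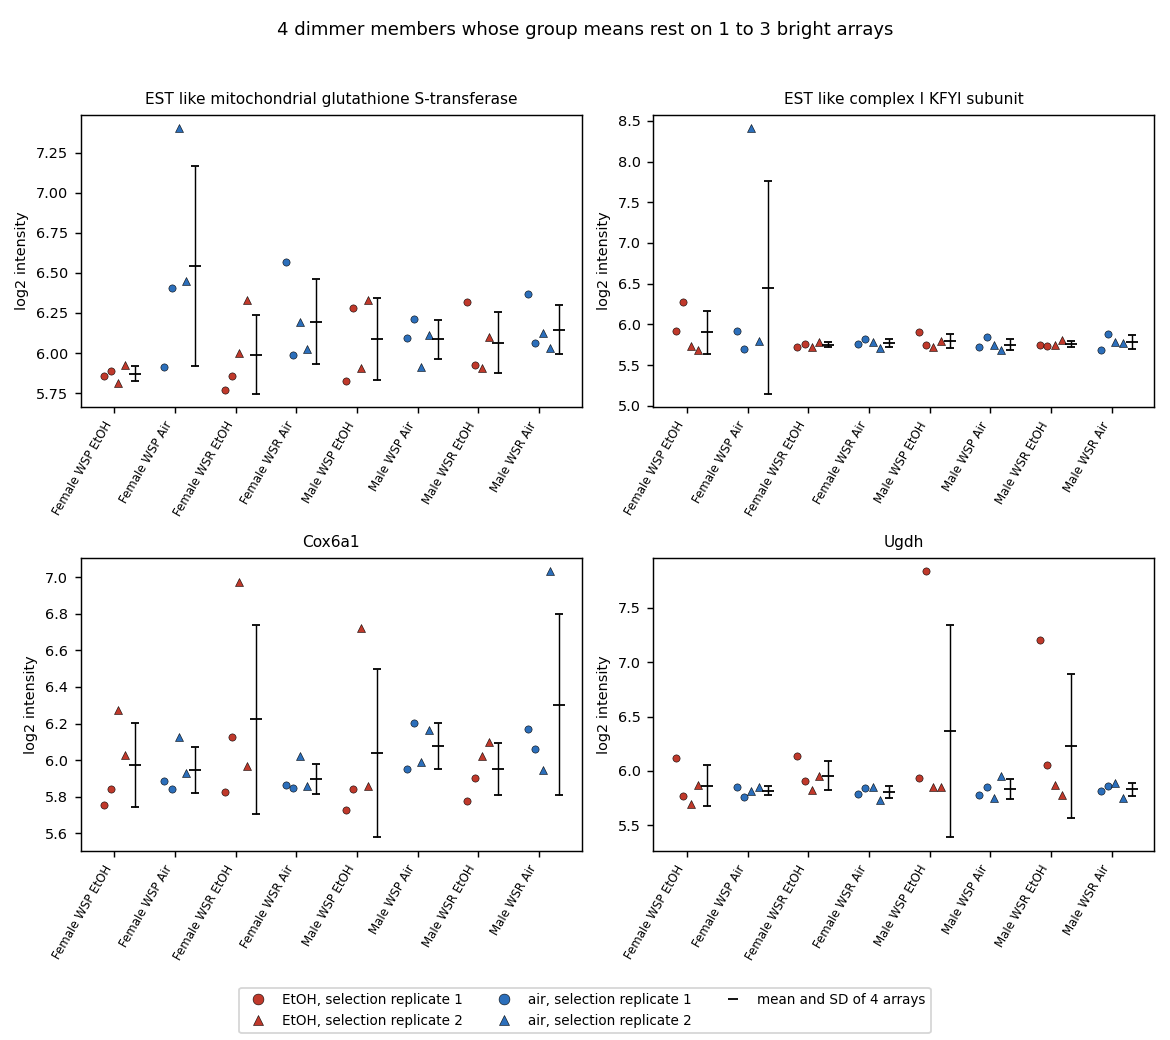
Log2 intensity on each array for the clones similar to glutathione S-transferase and the KFYI subunit, Cox6a1 and Ugdh, drawn as in the plot of the 6 chain clones. Single points carry group means: female WSP air 2-1 at 7.40 and 8.41, 3 arrays at 6.72 to 7.03 for Cox6a1, and 2 EtOH arrays at 7.84 and 7.21 for Ugdh.

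Over all members, 29 were higher and 33 lower in EtOH on average, with a median of -0.008 against 0.003 for all clones. At an unadjusted p under 0.05, 8 members stood out (12.9%, against 7.52% of all clones), 5 higher (8.06%, against 4.56%) and 3 lower (4.84%, against 2.96%). The 5 higher were the hydroxylacyl-CoA dehydrogenase, leucyl-tRNA synthetase, estradiol dehydrogenase and M9.2 clones and Timm17b, and the 3 lower the first Slc25a13 clone and the glutathione S-transferase and pyruvate dehydrogenase clones. No chain clone was among them.

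**Figure D5:**
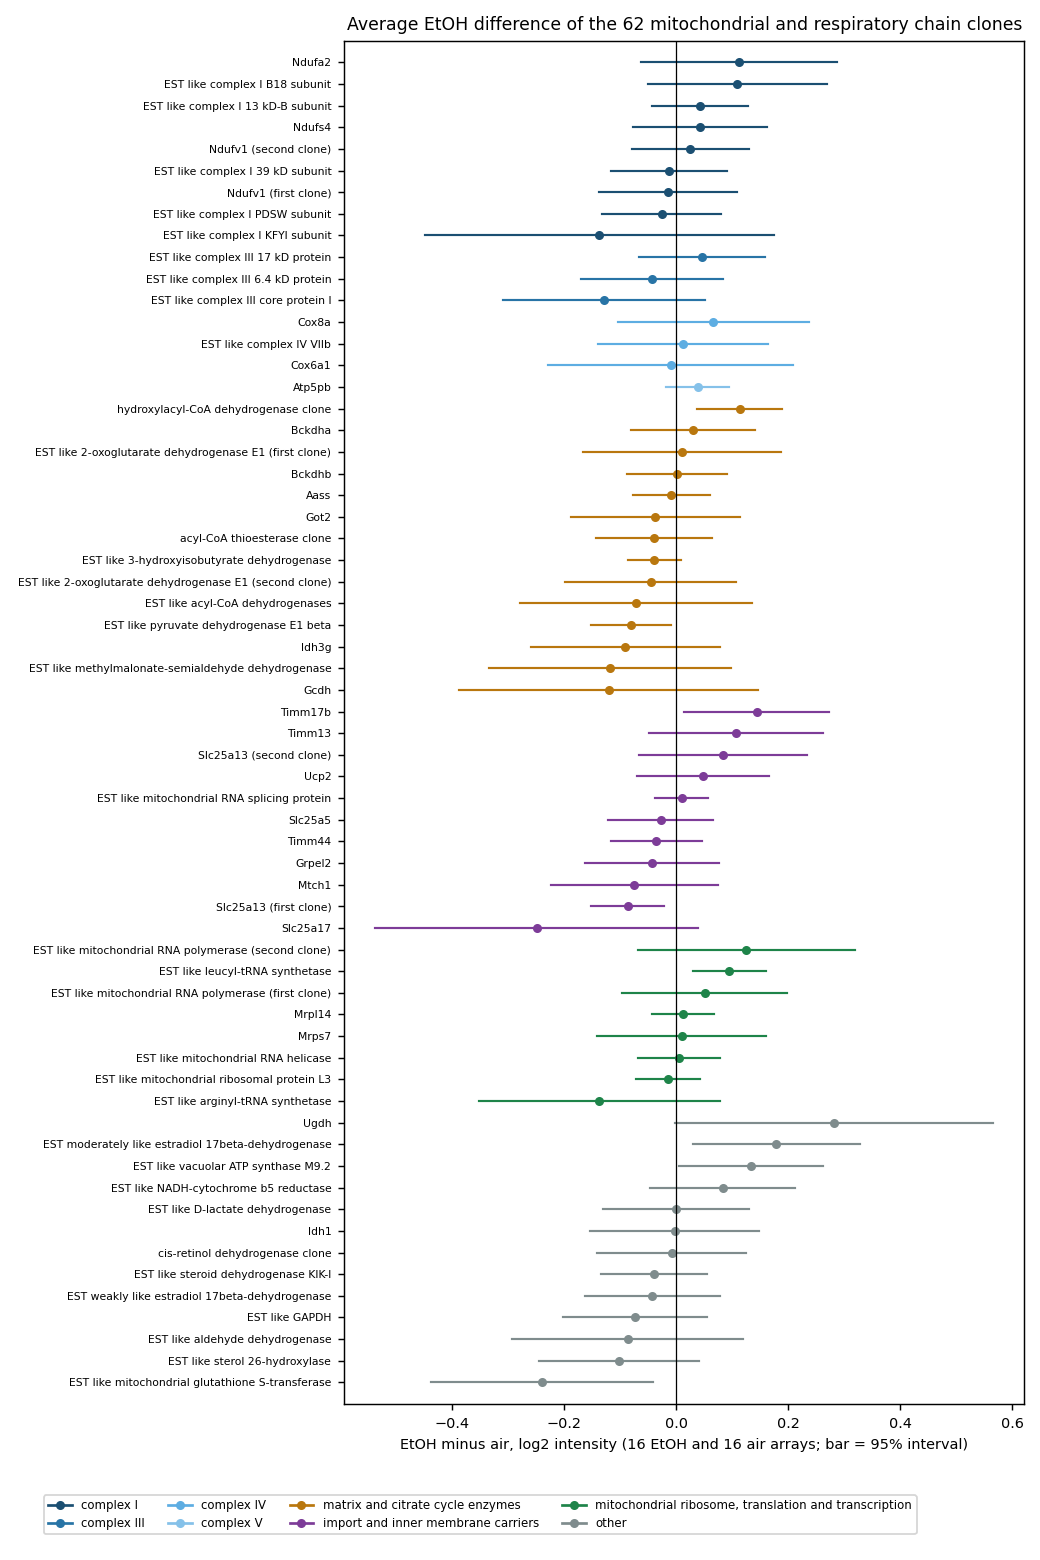
EtOH minus air in log2 intensity averaged over sexes and lines for each of the 62 members, ordered by role, with 95% intervals (16 EtOH and 16 air arrays). All 16 chain and ATP synthase intervals span 0, and 8 members of other roles have intervals that do not.

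The lines were compared over 16 WSP and 16 WSR arrays. None of the members passed, while 30 of all 4696 clones did (0.639%), and 3 members had an unadjusted p under 0.05 (4.84%, against 7.18% of all clones). The 2 clones farthest above background are given first. The VIIb clone ran from 10.96 over a median of 11.22 to 11.42 in WSP and from 11.00 over 11.38 to 11.90 in WSR, and 14 of 16 WSP arrays lay below the WSR mean. Its means were 11.19 ± 0.16 in WSP and 11.41 ± 0.27 in WSR (SD, n = 16 each), a difference of -0.22 (SE 0.07, limma, adjusted p = 0.338). Both populations of WSP lay below both of WSR, at 11.22 and 11.17 against 11.48 and 11.34. The direction turned with the scaling: the difference was 0.30 under median scaling (adjusted p = 0.675) and 0.0873 in the authors' deposited value table (adjusted p = 0.655, both limma). The 2 highest WSR arrays are the control-spot set named above for this clone. The PDSW clone ran from 10.48 over 10.95 to 11.18 in WSP and from 10.52 over 10.81 to 11.08 in WSR, with population means of 10.96 and 10.88 in WSP against 10.78 and 10.81 in WSR, a difference of 0.13 (SE 0.05, limma, adjusted p = 0.534). It was 0.54 under median scaling (adjusted p = 0.327), and 0.34 in the authors' deposited value table, where it passed (adjusted p = 0.0116, both limma). The RNA polymerase clone was 0.20 higher in WSP (adjusted p = 0.685), the NADH-cytochrome b5 reductase clone differed by -0.12 (adjusted p = 0.735), and neither passed in limma. Over the 16 chain clones 7 were higher and 9 lower in WSP (median -0.01).

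The sexes were compared over 16 female and 16 male arrays. None of the members passed, against 42 of all clones (0.894%), and 3 had an unadjusted p under 0.05 (4.84%, against 8.77% of all clones). Slc25a5, on the X chromosome, ran from 5.77 over a median of 5.93 to 6.32 in females and from 5.69 over 5.87 to 6.0 in males, a difference of 0.11 (SE 0.05, limma, adjusted p = 0.463). The RNA polymerase clone ran from 6.10 over 6.51 to 7.13 in females and from 5.94 over 6.29 to 7.08 in males (difference 0.21, SE 0.09, adjusted p = 0.501 in limma). The EST weakly similar to a mitochondrial RNA splicing protein of Caenorhabditis elegans differed by -0.06 (SE 0.02, limma, adjusted p = 0.295) with 1 female and 7 male arrays above background. Of the chain clones 11 were higher and 5 lower in females (median 0.02). In the authors' deposited value table, 23 members had enough values to be fitted, and 4 passed between the sexes. These were Ndufs4 at 0.44 (adjusted p = 0.00685), the RNA polymerase clone at 0.73 (adjusted p = 0.00844), the PDSW clone at -0.30 (adjusted p = 0.0204) and the VIIb clone at -0.55 (adjusted p = 0.000357), all by limma. In the main values these were 0.03, 0.21, 0.03 and -0.08. The median of all probes fitted in the authors' table was 0.12 and of the members 0.23.

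The EtOH effect was compared between lines and between sexes by an interaction. Between WSP and WSR, 0 members had an unadjusted p under 0.05 (0%, against 2.09% of all clones), and the smallest p values belonged to Ndufs4, the M9.2 clone and the B18 clone, whose effects were 0.22, 0.23 and 0.26 larger in WSP, and to the pyruvate dehydrogenase clone, Mtch1 and Slc25a5 at -0.14, -0.25 and -0.14 (limma, adjusted p = 0.999 each). Under median scaling the Ndufs4 and B18 values were 0.14 and 0.10. Between females and males, 3 members had an unadjusted p under 0.05 (4.84%, against 6.13% of all clones) and none passed. The EST similar to aldehyde dehydrogenase of Caenorhabditis elegans had an EtOH effect 0.41 larger in females (adjusted p = 0.785) and Ucp2 (chr7:100493337-100499629), a proton carrier that uncouples the gradient, one 0.22 smaller (adjusted p = 0.785 in limma). Each rests largely on 1 array. For the aldehyde dehydrogenase clone, male WSP air 1-1 read 7.32 and no other array over 6.61, and the interaction was 0.26 without it (limma, adjusted p = 0.870). For Ucp2, female WSP air 2-2 read 6.53 and the other 3 arrays of its group at most 5.79, and the interaction was -0.12 without it (limma, adjusted p = 0.835). The pyruvate dehydrogenase clone's line interaction was -0.0882 without female WSP air 2-1.

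Repeat clones of 1 gene or of 1 similarity were set against each other. Over 32 arrays, as deviations from group means, the 2 Ndufv1 clones correlated at r = -0.38 (permutation p = 0.0345, adjusted over 5 pairs 0.0862) and rho = -0.31 (p = 0.110, adjusted 0.138), and r was -0.32 without the 2 arrays farthest from the median. The 2 Slc25a13 clones had r = -0.27 and rho = -0.32, the 2 clones similar to human 2-oxoglutarate dehydrogenase r = -0.06 and rho = -0.07, and the 2 similar to estradiol 17beta-dehydrogenase r = 0.28 and rho = 0.33 (permutation p adjusted over the 5 pairs from 0.129 to 0.778). The 2 clones similar to mitochondrial RNA polymerase, one by the yeast and one by the human protein, had r = -0.53 (adjusted permutation p = 0.0430) and rho = -0.57 (adjusted p = 0.0182), and r = -0.48 without 2 arrays. The first of them had its 3 highest arrays on the set of Cox6a1. These permutations shuffle arrays within groups and take no account of the control-spot sets, within which values correlated at 0.485 across clones, so their p values may be too small. For the 6 chain clones above background on all arrays, the median r was -0.04 over 15 pairs (range -0.40 to 0.54), against 0.03 over all pairs of the 1236 clones detected on every array.

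Other genes of energy supply, from lists chosen by title, also held no call for EtOH. Of 4 glycolytic clones, 1 was higher in EtOH on average (median -0.03), with the muscle form of enolase at -0.10 and aldolase A at -0.05. Vdac2, the outer membrane channel for ATP and metabolites, differed by -0.08 (SE 0.03, limma, unadjusted p = 0.0253, adjusted p = 0.656), and creatine kinase of muscle by 0.06. Of 5 clones of proton and sodium pumps, which spend the ATP, 1 was higher in EtOH (median -0.05). The Na+/K+ pump beta 3 subunit was 0.27 units lower in females than in males (SE 0.05, limma, adjusted p = 0.00792), the 1 call among these 11 clones in any comparison.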

How the data were processed

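Spot signals were deposited as scanner intensity values with 1 background per array, per the file headers. The authors' deposited value table holds log2 values, with spots not above background blank. Its scaling is not given in the sources used here, its order within an array was that of the raw signal, and its column medians ran from 7.39 to 8.58. Of its clone spots, 2170 were fitted here, after a filter on blank values within each group. From the intensities, limma 3.58.1 in R 4.3.3 applied normexp with an offset of 50 over 5355 spots, quantile normalised the 4696 clone spots, took log2 and fitted 8 group means (lmFit, eBayes with trend, two-sided), with Benjamini-Hochberg adjustment over 4696 clones and a threshold of 0.05. Control spots (192 genomic DNA) and 467 spots without identity were left out after background correction. Selection replicates were collapsed within groups, as in the study's design.

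The labels name separate pools of 2 mice. Within a line a replicate number marks the same population, so EtOH and air arrays pair by population. Their deviations correlated at -0.08, 0.21, -0.02 and -0.003 in female WSP, female WSR, male WSP and male WSR. Members were named by a rule: all chain and ATP synthase clones, per comparison and direction the 3 smallest p, the 5 brightest members of other roles, and per sex and line up to 3 members whose EtOH and air arrays do not overlap. Some results picked by the smallest p are not described in the text, among them Mrpl14 between lines and a clone similar to GAPDH between sexes. Ugdh, Timm13 and members named for an array set were chosen after their values were seen. The members and lists were chosen with earlier results of these data known. The fit was run on simulated data with independent normal values per array. These held no control-spot sets, so the run does not cover that dependence. Alternatives were other background and scaling methods, a filter on dim spots, blocks, single selection replicates, the authors' table and leaving out each array. One marker list is not reported here.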

Additional observations from a re-analysis of the deposited data

Results flagged for a closer look

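In 18 of 170 sets of 4 arrays (1 named member in 1 group), 1 array stood apart from the other 3 by more than Dixon's 95% critical value, 16 of them high. Chance alone gives about 5 in 100, that is 1 in 20 groups, for normal values in unselected groups. Some of these groups were chosen for their values and most members lie near the floor, so an excess over that rate cannot be read from the count. Their causes were not tested.

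In complex I, the KFYI clone read 8.41 on female WSP air 2-1, where the next array of its group read 5.92. The 39 kD clone read 6.44 on female WSP air 1-2 (next 5.87), the 13 kD-B clone was low at 5.76 on male WSP air 1-2 (next 5.92), and the second Ndufv1 clone read 5.98 on that array (next 5.78). Ndufa2 read 6.28 on female WSP EtOH 2-1 (next 5.77) and 6.39 on male WSR EtOH 1-2 (next 5.86). In complex III, the 6.4 kD clone read 6.86 on female WSP air 1-2 (next 6.09), and the 17 kD clone 6.30 on female WSR EtOH 2-1 (next 5.84). The core protein I clone read 6.77 on female WSP air 2-2 (next 5.84) and 6.4 on male WSR air 1-1 (next 5.81).

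In complex IV, Cox6a1 read 6.72 on male WSP EtOH 2-1 (next 5.86) and 6.02 on female WSR air 2-1 (next 5.86), and Cox8a 6.95 on female WSP EtOH 1-2 (next 6.27). Outside the chain, the acyl-CoA dehydrogenase clone read 7.60 on female WSP air 2-1 (next 6.07), the leucyl-tRNA synthetase clone 5.81 on female WSR air 2-1 (next 5.71), the M9.2 clone was low at 5.77 on male WSP air 1-2 (next 5.92), Idh1 read 6.27 on male WSR EtOH 1-2 (next 5.91) and Timm17b 5.99 on male WSP air 2-2 (next 5.88).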

How the results depend on the processing

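With the replicate block, 0 members passed in any of the 9 comparisons, as without it. The count of members passing in female WSP was 1 under median scaling and 1 under cyclic loess, and ran from 0 to 1 when single arrays were left out. Each time this was the glutathione S-transferase clone, at -0.83 (adjusted p = 0.0488), -0.83 (adjusted p = 0.0344) and, without female WSP air 1-1, -0.88 (adjusted p = 0.0348, all limma). In the authors' deposited values 1 member passed between lines, the PDSW clone at 0.34 (adjusted p = 0.0116), and 4 between sexes. Of the remaining counts of members passing, none moved under the alternatives run. Of 864 values of named members under alternatives other than leaving out arrays, 23 changed sign. The cause was not tested. With the control-spot array set as a random block, these were the sterol 26-hydroxylase clone in female WSR at 7.99e-05 and, for average EtOH minus air, the first Ndufv1 clone at 0.0175, VIIb at -0.0697, Cox6a1 at 0.00306 and 39 kD at 0.00592. Cox6a1 averaged 0.0252 under cyclic loess and 0.0239 under median scaling, where VIIb averaged -0.0282 and differed by 0.30 between lines. In the authors' deposited value table VIIb averaged -0.0394 and differed by 0.0873 between lines, and the first Ndufv1 clone averaged 0.0401. Within selection replicate 1 alone, the second Ndufv1 clone averaged -0.0337, Ndufs4 -0.00853 and KFYI 0.0596. Within replicate 2 alone, Cox8a averaged -0.0288, Atp5pb -0.0166, Cox6a1 0.11, VIIb -0.0782, 39 kD 0.0367 and the second 2-oxoglutarate dehydrogenase clone 0.0107, the aldehyde dehydrogenase clone differed by 0.0344 in male WSP and the leucyl-tRNA synthetase clone by -0.00112 in male WSR. Leaving out single arrays, averages that changed sign ran from -0.0718 to 0.0515 for Cox6a1, -0.0294 to 0.0273 for 39 kD, -0.0634 to 0.00792 for 6.4 kD, -0.20 to 0.0266 for KFYI, -0.0436 to 0.000906 for PDSW, -0.0372 to 0.0453 for VIIb and -0.0434 to 0.00361 for the first Ndufv1 clone. Of 52 differences of at least 0.1 among named members, 45 were over 1.5 times larger with an offset of 10. Signal over background limits the reading of 58 members near the floor.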
